A study of Homo sapiens with 8 samples.

Results

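The integrated stress response was followed through 10 genes that lead from ATF4 to CHOP: ATF4, ATF5, DDIT3 (which encodes CHOP), TRIB3, CHAC1, PPP1R15A, PPP1R15B, CEBPB, CEBPG and NUPR1. The genes were picked by symbol, with earlier results of these same data known, from the 26364 genes of the count file, of which 14201 carried enough counts to be tested. RNA was sequenced from LN229, a human glioblastoma cell line, stably transfected and kept under G418 selection. Clone D6 carried Surv-GFP, Survivin with a functional nuclear export signal (NES) that is found mostly in the cytoplasm of cells without drug, and clone L2 carried SurvNESmut-GFP, whose mutated NES keeps it mostly in the nucleus. Either clone was sequenced without drug and after 48 h in 50 µM temozolomide (TMZ), an alkylating drug used against glioblastoma. The 4 groups of 2 libraries, with the replicate letters a and b, were therefore Surv-GFP untreated, Surv-GFP TMZ, SurvNESmut-GFP untreated and SurvNESmut-GFP TMZ. Since each form of Survivin was represented by 1 clone, a difference of form and a difference of clone cannot be told apart. The study describes its RNA data as independent biological replicates in technical duplicates, but the labels do not say which of these the letters a and b are. The errors below therefore rest on the spread between letters, which may be technical. In the fitted model this spread is estimated over the 4 groups together, with information shared across genes. The intervals of the NUPR1 count ratios are an exception and cover counting error only. The counts do not show where Survivin was in the TMZ groups.

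The integrated stress response starts from kinases that sense a shortage of amino acids, misfolded protein in the endoplasmic reticulum (ER), double-stranded RNA or a lack of heme, and that phosphorylate the translation factor eIF2 on its alpha subunit. Most protein synthesis then slows down, while the mRNAs of ATF4, ATF5, DDIT3 and PPP1R15A, which carry upstream open reading frames, are translated more. ATF4 protein activates genes of amino acid supply and further transcription factors, among them DDIT3, and PPP1R15A closes the loop by bringing a phosphatase back to eIF2. RNA counts measure the transcript level of these genes and not their translation, protein or the phosphorylation of eIF2.

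The libraries held 15826923 to 18861603 counts on genes. The letters of a group correlated with r of 0.9939 to 0.9959 across genes on the log2 scale, and they differed by more than sampling noise, most of all in SurvNESmut-GFP TMZ (chi-square per degree of freedom 5.74 against 2.2 to 2.66 in the other groups). Levels are given as CPM, the usual counts per library total, scaled by the TMM method. The glial and glioma markers VIM, NES, CD44 and SOX2 were present in each library, GFAP was at most 0.921 CPM and SOX9 at most 0.166 CPM, and PTPRC, AIF1, PECAM1, CDH5, EPCAM, CDH1, KRT19 and RBFOX3, which define immune, endothelial, epithelial and neuronal cells, did not exceed 0.389 CPM. Of the other markers, CD68, a gene of macrophages and lysosomes, rose with TMZ in both clones (log2 fold changes 0.59 and 0.40, edgeR's quasi-likelihood test, adjusted p = 0.00011 and 0.0044), TUBB3 fell (-0.69 and -0.32, adjusted p = 1.2e-08 and 0.00016), VWF was at most 0.867 CPM and SYP at most 3.33 CPM. Of the 9 glial and glioma markers 7 were tested. Upon TMZ 6 of them fell and 0 rose in Surv-GFP, where the summed level of the 9 went from 6086 and 6168 to 3853 and 3947 CPM, and 5 fell and 1, CD44, rose in SurvNESmut-GFP, from 4627 and 4809 to 4062 and 4172 CPM. S100B fell by 1.56 and 1.28, FABP7 by 1.99 and 1.25 and SOX2 by 0.74 and 0.81, and OLIG2 fell by 0.98 in Surv-GFP and was at -0.02 in SurvNESmut-GFP (adjusted p = 0.94). Between the untreated clones 5 of the 7 were lower and 2 higher in SurvNESmut-GFP. S100B was at 798 and 756 against 41.2 and 40.1 CPM, FABP7 at 188 and 162 against 15.4 and 14.9 CPM, SOX2 at 88.8 and 92.6 against 33.6 and 35.2 CPM and OLIG2 at 35.2 and 32.7 against 7.37 and 6.5 CPM. The part of these marker changes in the values below was not tested. CDKN1A, a target of p53, rose upon TMZ by 3.52 and 1.96 on the log2 scale in the same order of clones (adjusted p = 1e-15 and 4.2e-12). BIRC5, the gene of Survivin, was at 1150 and 1110 CPM in untreated Surv-GFP, 1940 and 2030 CPM in Surv-GFP TMZ, 407 and 414 CPM in untreated SurvNESmut-GFP and 262 and 253 CPM in SurvNESmut-GFP TMZ. The symbol does not separate transcripts of the transgene from those of the cell's own gene, so the clones differed in Survivin RNA as well as in its form.

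ATF4 binds, together with a C/EBP partner, an element that joins a C/EBP and an ATF half-site, written here as TGATGNAA, and the windows from 250 bases before to 50 bases after the RefSeq start sites were searched for it on both strands. A window was found for 9 members, and NUPR1 had none. The element was present in the windows of 3 members, CHAC1, PPP1R15B and CEBPG, and in 4.46% of the 27305 genes with a window. Elements outside these windows were not searched for, so a member without a match here, such as DDIT3 or TRIB3, may still carry one. The palindrome TGACGTCA, the cyclic AMP response element that ATF and CREB factors bind, was present in the window of PPP1R15A and in 2.25% of genes. The stretches that hold them are shown so that the shared letters can be compared. They are on build GRCh38.p14, 5′ to 3′ on the strand of the gene, with the match in capitals; the matches overlap no other motif searched. A match is a description of these letters and not a measured binding site.
CHAC1, chr15:40953251-40953280 on the + strand, 209 to 202 bases before the start, element on the other strand, within an exon of a longer CHAC1 transcript of GENCODE 29: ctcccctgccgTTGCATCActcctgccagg
PPP1R15B, chr1:204412007-204412067 on the - strand, 227 to 220 bases before the start, outside annotated exons: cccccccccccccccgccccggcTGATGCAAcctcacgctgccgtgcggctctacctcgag
CEBPG, chr19:33374041-33374108 on the + strand, 42 to 35 bases before the start, outside annotated exons: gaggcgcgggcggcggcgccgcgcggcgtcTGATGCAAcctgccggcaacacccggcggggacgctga
PPP1R15A, chr19:48872352-48872381 on the + strand, 58 to 51 bases before the start, outside annotated exons: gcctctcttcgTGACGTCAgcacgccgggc

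PPP1R15B and CEBPG share the same 8 letters of the element, TGATGCAA, followed in both by CCT, and CHAC1 carries them on the opposite strand. The response of these genes to TMZ spanned nearly the whole range of the members. CHAC1 rose most of the members in SurvNESmut-GFP and PPP1R15B did not pass the threshold there.

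Upon TMZ, the chain from ATF4 to CHOP was higher in both clones, and further from its untreated level in Surv-GFP. In Surv-GFP, 9 of the 10 genes passed an adjusted p of 0.05 as higher and 0 as lower, while 30.1% of all tested genes were called higher and 28.9% lower. In SurvNESmut-GFP, 8 were called higher and 1 lower, against 18.6% and 19.1% of all genes. These counts and the values of the members are descriptions, because the genes were chosen with such results in view. NUPR1 reached the count filter only through SurvNESmut-GFP TMZ. With NUPR1 left out, 8 of the 9 other genes were called higher and 0 lower in Surv-GFP, and 7 higher and 1 lower in SurvNESmut-GFP. The median over these 9 genes was 2.22 log2 units for Surv-GFP and 0.79 for SurvNESmut-GFP, beside 0 and 0.003 for the whole set of tested genes. In RNA of whole cultures, a change in each cell cannot be told apart from a change in the share of cells that respond.

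**Figure D1:**
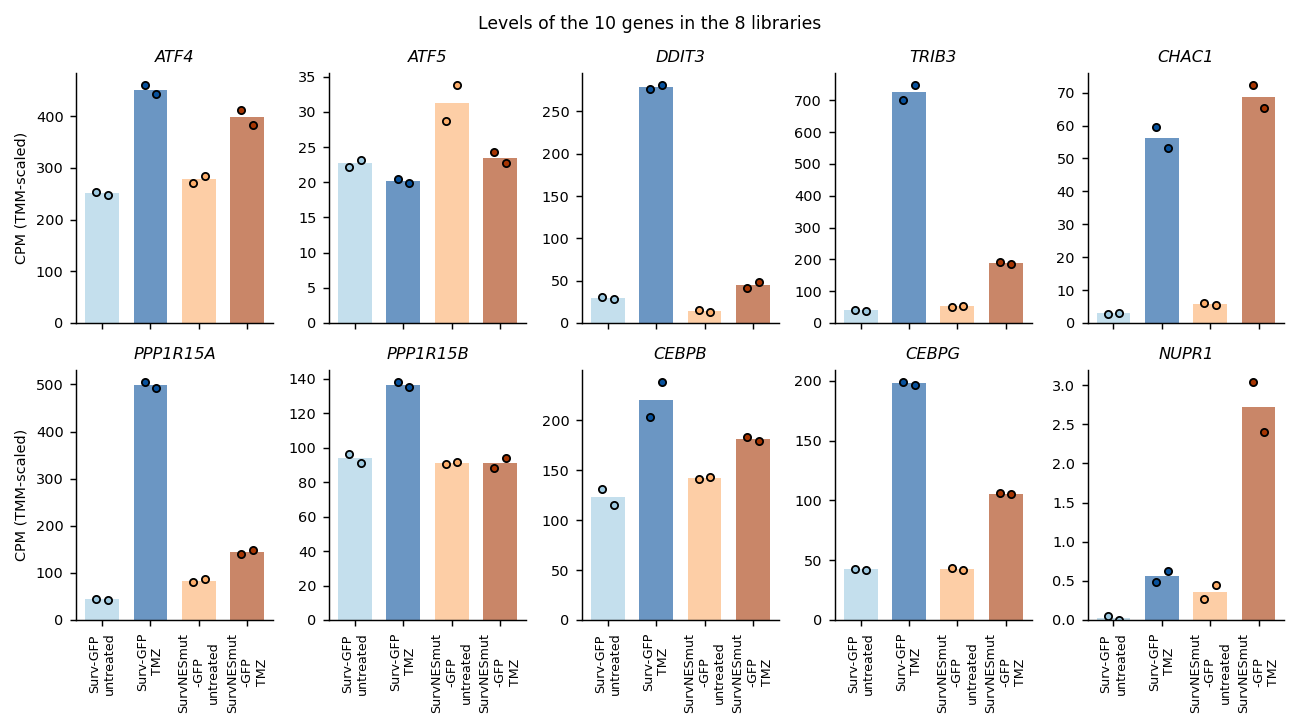
CPM (TMM-scaled, linear axis from 0, a scale of its own in each panel) of the 10 genes in the 8 libraries. Points are libraries and bars are group means of 2 libraries. DDIT3, TRIB3 and PPP1R15A are highest in Surv-GFP TMZ (means of 279, 725 and 499 CPM), CHAC1 and NUPR1 in SurvNESmut-GFP TMZ (68.8 and 2.72 CPM).

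ATF4, the transcription factor at the head of the chain, was abundant in untreated cells and changed moderately. Its level was 254 and 247 CPM in untreated Surv-GFP libraries and 460 and 443 CPM with TMZ. In SurvNESmut-GFP it was 270 and 285 CPM untreated and 412 and 383 CPM with TMZ. The 4 groups did not overlap, in the order Surv-GFP untreated, SurvNESmut-GFP untreated, SurvNESmut-GFP TMZ and Surv-GFP TMZ. The TMZ effect was 1.80-fold in Surv-GFP (log2 fold change 0.85 ± 0.05, SE) and 1.43-fold in SurvNESmut-GFP (0.52 ± 0.05). The difference of these effects, SurvNESmut-GFP minus Surv-GFP here and throughout, was -0.33 on the log2 scale, with a 95% interval of -0.48 to -0.17. The untreated clones differed by 0.14 ± 0.05, a call that was lost under 5 of the 9 other settings with all letters, down to 0.09 with plain library sizes, and without 5 of the 8 libraries, which were Surv-GFP untreated a, Surv-GFP untreated b, Surv-GFP TMZ a, Surv-GFP TMZ b and SurvNESmut-GFP untreated b.

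ATF5, a relative of ATF4 that is also controlled by translation and is known for the response to mitochondrial stress, went the other way. Its level was 22.2 and 23.2 CPM in untreated Surv-GFP, 20.5 and 19.9 CPM in Surv-GFP TMZ, 28.7 and 33.8 CPM in untreated SurvNESmut-GFP and 24.3 and 22.7 CPM in SurvNESmut-GFP TMZ. The untreated SurvNESmut-GFP libraries were thus above the other 6, and the Surv-GFP TMZ libraries below them. ATF5 fell in SurvNESmut-GFP by 0.41 on the log2 scale (SE 0.09) and was the only member called lower in either clone. In Surv-GFP the change was -0.17 with an interval of -0.37 to 0.03 and did not pass, and the difference of the effects, -0.24 (-0.51 to 0.03), did not pass either, although it did without SurvNESmut-GFP untreated a (-0.36). Exons of ATF5 overlap exons of IL4I1 and NUP62 on the opposite strand and MIR4751 on the same strand in GENCODE 29, and the use of strand in counting is not stated in the sources used here.

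DDIT3 encodes CHOP, the transcription factor linked to cell death under prolonged stress. Its level was 30.9 and 28.6 CPM in untreated Surv-GFP and 277 and 281 CPM with TMZ. In SurvNESmut-GFP it was 15.2 and 13.5 CPM untreated and 41.2 and 48.4 CPM with TMZ. The Surv-GFP TMZ libraries stood far above all others, and the untreated SurvNESmut-GFP libraries were lowest. DDIT3 rose 9.37-fold in Surv-GFP (log2 3.23 ± 0.07) and 3.11-fold in SurvNESmut-GFP (1.64 ± 0.09), a difference of -1.59 (-1.84 to -1.34). It was the only member called lower in SurvNESmut-GFP without drug, by 1.05 on the log2 scale (SE 0.09), and with TMZ the clones differed by -2.64 (SE 0.07). With TMZ, SurvNESmut-GFP cells held 44.8 ± 5.09 CPM (SD, n = 2), closer to untreated Surv-GFP cells (29.8 ± 1.63) than to Surv-GFP TMZ cells (279 ± 3.05). Exons of DDIT3 overlap those of MARS and MBD6 on the opposite strand and AC022506.1 on the same strand. MARS, the methionyl-tRNA synthetase, rose by 1.45 and 0.93 (edgeR, adjusted p = 1.8e-11 and 1.6e-08), with a difference of -0.52 (adjusted p = 0.00037), and its part in the DDIT3 counts was not tested.

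TRIB3, a pseudokinase that is induced by ATF4 and CHOP and dampens their activity, showed the largest fold change after CHAC1 in Surv-GFP among the genes other than NUPR1. Its level was 40.6 and 38.8 CPM in untreated Surv-GFP and 702 and 748 CPM with TMZ, and in SurvNESmut-GFP it was 51.2 and 52.5 CPM untreated and 192 and 187 CPM with TMZ. No groups overlapped. TRIB3 rose 18.2-fold in Surv-GFP (log2 4.19 ± 0.06) and 3.66-fold in SurvNESmut-GFP (1.87 ± 0.06), so that the effects differed by -2.32 (-2.49 to -2.15). Untreated SurvNESmut-GFP was higher by 0.38 (SE 0.06), and with TMZ it was lower by 1.94 (SE 0.05).

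CHAC1, which degrades glutathione, behaved differently from TRIB3 and DDIT3. Its level was 2.76 and 3.15 CPM in untreated Surv-GFP and 59.5 and 53.1 CPM with TMZ, and in SurvNESmut-GFP it was 6.18 and 5.39 CPM untreated and 72.3 and 65.3 CPM with TMZ. Both SurvNESmut-GFP groups were thus above the Surv-GFP groups of the same exposure. CHAC1 rose 19-fold in Surv-GFP (log2 4.25 ± 0.12) and 11.9-fold in SurvNESmut-GFP (3.57 ± 0.10), the largest TMZ effects of the 9 members other than NUPR1 in each clone. The difference of effects was -0.68 (-1.08 to -0.28), and it no longer passed without Surv-GFP untreated a (-0.59) or SurvNESmut-GFP untreated a (-0.58). SurvNESmut-GFP was higher by 0.97 (SE 0.17) untreated and by 0.29 (SE 0.07) with TMZ, the latter not called without SurvNESmut-GFP TMZ a (0.18).

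PPP1R15A (GADD34) and PPP1R15B (CReP) encode the subunits that direct protein phosphatase 1 to eIF2, the former known as inducible and the latter as constitutive. PPP1R15A was at 45.2 and 42.1 CPM in untreated Surv-GFP and at 505 and 493 CPM with TMZ. In SurvNESmut-GFP it was at 79.9 and 86.9 CPM untreated and at 141 and 148 CPM with TMZ. All groups were apart from each other, and untreated SurvNESmut-GFP was already above untreated Surv-GFP, by 0.93 on the log2 scale (SE 0.06). The gene rose 11.4-fold in Surv-GFP (log2 3.52 ± 0.06) and 1.73-fold in SurvNESmut-GFP (0.79 ± 0.06). The difference, -2.72 (-2.90 to -2.55), was the largest among the 10 genes, and with TMZ SurvNESmut-GFP was lower by 1.79 (SE 0.05).

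PPP1R15B was at 96.4 and 91.0 CPM in untreated Surv-GFP, at 138 and 135 CPM in Surv-GFP TMZ, at 90.7 and 91.7 CPM in untreated SurvNESmut-GFP and at 88.3 and 93.9 CPM in SurvNESmut-GFP TMZ. The Surv-GFP TMZ libraries stood apart, and neighbouring groups among the other 3 overlapped. PPP1R15B rose in Surv-GFP by 0.55 (SE 0.05), while its change in SurvNESmut-GFP had a 95% interval of -0.12 to 0.11 around -0.003. The effects differed by -0.55 (-0.71 to -0.39). Untreated clones differed by -0.04 (-0.15 to 0.07), and with TMZ by -0.59 (SE 0.05).

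CEBPB and CEBPG encode C/EBP factors that can pair with ATF4 and CHOP, CEBPG being a partner of ATF4 at amino acid genes. CEBPB was at 131 and 115 CPM in untreated Surv-GFP, 203 and 238 CPM in Surv-GFP TMZ, 141 and 143 CPM in untreated SurvNESmut-GFP and 183 and 179 CPM in SurvNESmut-GFP TMZ. The letters were further apart in both Surv-GFP groups than in SurvNESmut-GFP, but the groups kept apart. CEBPB rose by 0.84 (SE 0.07) in Surv-GFP and by 0.35 (SE 0.07) in SurvNESmut-GFP, a difference of -0.49 (-0.70 to -0.29). The clone differences were small, 0.21 (SE 0.07) untreated and -0.29 (SE 0.07) with TMZ. The former was lost with plain library sizes (0.15), with the filter of 1 CPM (0.17) and without Surv-GFP untreated b (0.12), SurvNESmut-GFP untreated a (0.22) or SurvNESmut-GFP untreated b (0.20), and the latter without Surv-GFP TMZ b (-0.17). CEBPB-AS1 shares exon sequence with CEBPB on the opposite strand.

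CEBPG was at 42.6 and 42.2 CPM in untreated Surv-GFP and at 199 and 197 CPM with TMZ, and in SurvNESmut-GFP at 43.3 and 42.1 CPM untreated and at 106 and 105 CPM with TMZ. The untreated clones overlapped, with a difference of 0.01 (-0.11 to 0.13), and the TMZ groups were clearly separate. The rise was 4.67-fold in Surv-GFP (log2 2.22 ± 0.05) and 2.47-fold in SurvNESmut-GFP (1.30 ± 0.05). The effects differed by -0.92 (-1.07 to -0.77), and the clones with TMZ by -0.91 (SE 0.05).

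NUPR1, a small chromatin-associated stress protein, was rare. It had 1 and 0 counts in untreated Surv-GFP, 9 and 11 in Surv-GFP TMZ, 5 and 8 in untreated SurvNESmut-GFP and 52 and 38 in SurvNESmut-GFP TMZ. The last group, at 3.04 and 2.40 CPM, lay above the other 6 libraries, in contrast to DDIT3, TRIB3 and PPP1R15A. Ratios of summed counts per library size, with exact 95% intervals for counting error only, were 20.2 (3.24 to 839) for TMZ in Surv-GFP and 7.65 (4.26 to 14.9) for TMZ in SurvNESmut-GFP. Between the clones, SurvNESmut-GFP over Surv-GFP, they were 13 (1.96 to 554) untreated and 4.93 (3.01 to 8.45) with TMZ. The fitted difference of TMZ effects, -1.12, had an interval of -3.42 to 1.18, and no difference was detectable at this depth. The fitted clone difference without drug passed the threshold, but not without Surv-GFP untreated b or SurvNESmut-GFP untreated b.

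**Figure D2:**
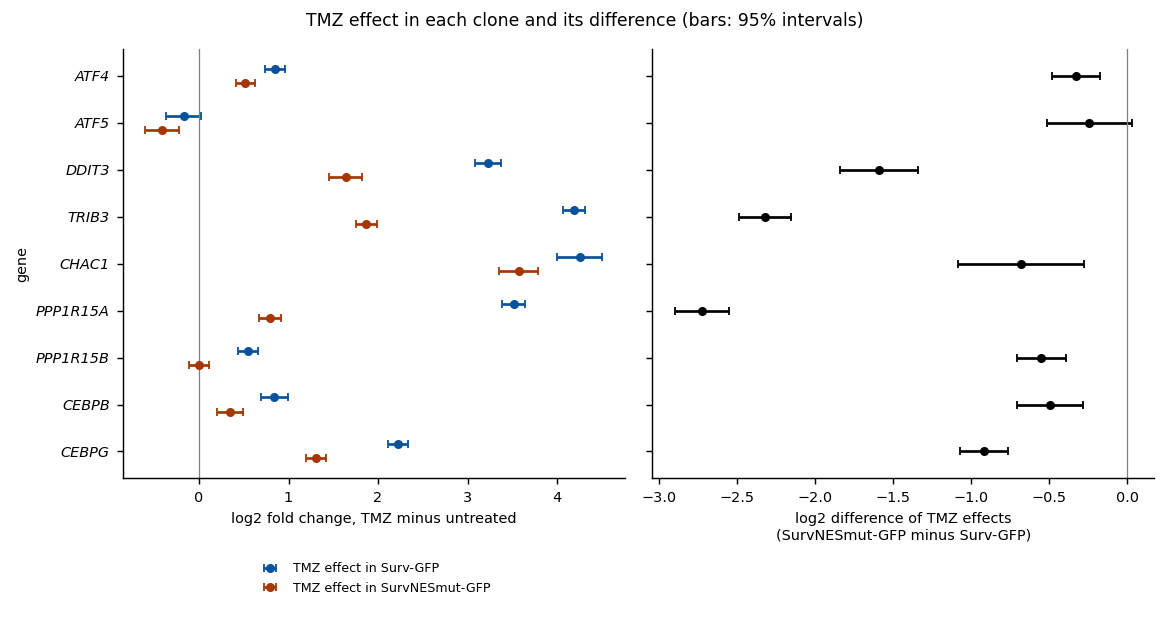
Log2 fold change upon TMZ in each clone (left) and the difference of these changes, SurvNESmut-GFP minus Surv-GFP (right), for 9 genes. Points are estimates of the edgeR model and bars are 95% intervals; NUPR1 is left out for its low counts. In the right panel 8 of the 9 intervals lie below 0, from -2.72 for PPP1R15A to -0.33 for ATF4, and that of ATF5 includes 0.

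The difference of TMZ effects was called lower for 8 of the 10 genes and higher for 0, where 20.2% of all genes were called lower and 16.6% higher. The genes with the larger effects in Surv-GFP did not all lose the same share. PPP1R15A kept 0.79 of 3.52 log2 units in SurvNESmut-GFP and TRIB3 1.87 of 4.19, but CHAC1 kept 3.57 of 4.25. Both comparisons use separate libraries, yet the difference is built from all 8, so the values of the clones and their difference are not independent of each other.

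Before any drug, 7 members were called higher and 1 lower in SurvNESmut-GFP than in Surv-GFP, beside 34.7% and 29.4% of all genes. The values ran from -1.05 for DDIT3 to 0.97 for CHAC1 over the 9 genes other than NUPR1, with a median of 0.21 against 0.03 over all genes. With TMZ, 3 members were called higher, namely ATF5, CHAC1 and NUPR1, and 7 lower, beside 34.5% and 34.7% of all genes. NUPR1 is in both counts of higher genes and passed the filter only through the group where it is high, and over the 9 other genes the counts were 6 higher and 1 lower without drug and 2 higher and 7 lower with TMZ. The median of the 9 genes was then -0.59. The count of 7 fell to 4 without Surv-GFP untreated b or SurvNESmut-GFP untreated b, and the count of 3 fell to 1 without SurvNESmut-GFP TMZ a. ATF5 with TMZ, at 0.22 (SE 0.09), was called only narrowly and lost in 5 of the 9 other settings with all letters, among them the fit with the letter as a block, and without either untreated Surv-GFP library, either Surv-GFP TMZ library or either SurvNESmut-GFP TMZ library (0.13 without SurvNESmut-GFP TMZ a).

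Ratios of raw counts within a library need no scaling between libraries, and they are compared here only across libraries, since gene length differs. PPP1R15A to PPP1R15B was 0.469 and 0.462 in untreated Surv-GFP, 3.64 and 3.65 in Surv-GFP TMZ, 0.880 and 0.947 in untreated SurvNESmut-GFP and 1.59 and 1.57 in SurvNESmut-GFP TMZ. The balance between the RNAs of the inducible and the constitutive phosphatase subunit therefore moved in both clones, and without drug it already stood higher in SurvNESmut-GFP. Protein was not measured here. DDIT3 to ATF4 was 0.122 and 0.116 in untreated Surv-GFP, 0.603 and 0.636 in Surv-GFP TMZ, 0.0565 and 0.0474 in untreated SurvNESmut-GFP and 0.100 and 0.127 in SurvNESmut-GFP TMZ. For this ratio SurvNESmut-GFP TMZ overlapped with untreated Surv-GFP. CHAC1 to ATF4 was 0.0109 and 0.0127 in untreated Surv-GFP, 0.129 and 0.12 in Surv-GFP TMZ, 0.0229 and 0.0189 in untreated SurvNESmut-GFP and 0.175 and 0.171 in SurvNESmut-GFP TMZ, so that the order of the TMZ groups was the opposite of that for DDIT3.

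**Figure D3:**
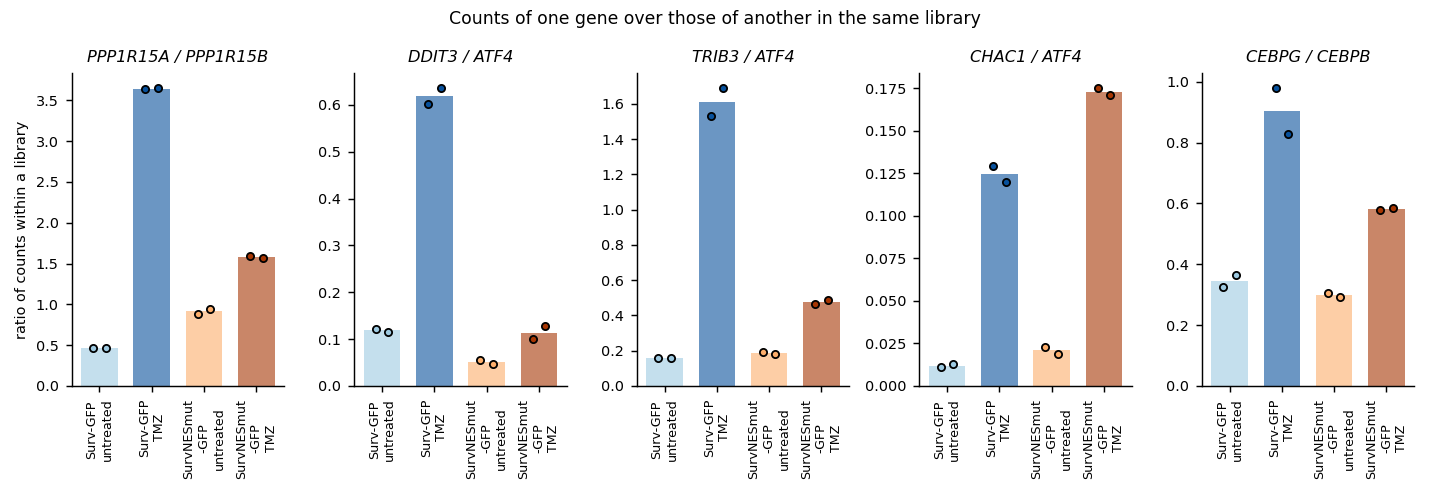
Counts of 1 gene divided by those of another in the same library (linear axes from 0). Points are libraries and bars are group means of 2 libraries. PPP1R15A to PPP1R15B is at 3.64 and 3.65 in Surv-GFP TMZ against 1.59 and 1.57 in SurvNESmut-GFP TMZ, and CHAC1 to ATF4 is highest in SurvNESmut-GFP TMZ, at 0.175 and 0.171.

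The genes whose pattern over the 8 libraries lay closest to each member were found by the root-mean-square distance of centred log2 CPM. KCNMA1 and NARS were closest to ATF4 (0.0381 and 0.0497 log2 units), BEX2 and DUSP5 to DDIT3 (0.209 and 0.280), LINC00589 and GADD45A to TRIB3 (0.185 and 0.236), AKNA and FHL2 to PPP1R15A (0.0999 and 0.253) and IL1A and TCERG1L-AS1 to CHAC1 (0.489 and 0.533). C1D and ZBTB44 were closest to ATF5 (0.0569 and 0.0586), YIPF6 and RUNDC1 to PPP1R15B (0.0229 and 0.0410), C2CD2L and TRIP6 to CEBPB (0.0516 and 0.0620), RAB39B and ZNF468 to CEBPG (0.119 and 0.12) and KRT86 and ARHGAP25 to NUPR1 (0.357 and 0.396). Among the members, ATF4 and CEBPB lay nearest each other, at 0.103, CEBPB being in place 52 of the genes closest to ATF4. TRIB3 came in place 19 for DDIT3 and in place 26 for PPP1R15A. With 2 libraries in each of 4 groups, these distances describe 4 group levels and little more.

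Among the kinases that phosphorylate eIF2 and the genes that act on these kinases, calls went in both directions. Of 9 genes in the file, all of which were tested, 2 rose and 3 fell in Surv-GFP and 3 rose and 3 fell in SurvNESmut-GFP (medians -0.09 and 0.03). These are 22.2% and 33.3% of the list in Surv-GFP, near the 30.1% and 28.9% of all tested genes, and 33.3% in either direction in SurvNESmut-GFP, beside 18.6% and 19.1% of all genes. In the difference of the effects 33.3% were called higher and 11.1% lower, beside 16.6% and 20.2% of all genes. The count of 2 fell to 1 without Surv-GFP untreated a, and that of 3 higher in SurvNESmut-GFP to 1 without SurvNESmut-GFP untreated a. The difference was called higher for 3, and for 1 in each fit without Surv-GFP untreated a, Surv-GFP untreated b, Surv-GFP TMZ b or SurvNESmut-GFP untreated b. EIF2AK3, which encodes the ER sensor PERK, was at 29.8 and 29 CPM in untreated Surv-GFP, 38.4 and 39.0 CPM in Surv-GFP TMZ, 34.9 and 30.4 CPM in untreated SurvNESmut-GFP and 18.5 and 21.6 CPM in SurvNESmut-GFP TMZ. It rose by 0.40 in Surv-GFP (edgeR's quasi-likelihood test, adjusted p = 0.00056) and fell by 0.70 in SurvNESmut-GFP (adjusted p = 1.2e-05), and the effects differed by -1.10 ± 0.12 (adjusted p = 3.5e-06). EIF2AK4 (GCN2), the amino acid sensor, went in the opposite directions, by -0.15 and 0.21 (adjusted p = 0.028 and 0.0061, difference 0.35, adjusted p = 0.0017). Its call in Surv-GFP was lost without Surv-GFP untreated b (-0.09) or Surv-GFP TMZ b (-0.14), and that in SurvNESmut-GFP without SurvNESmut-GFP untreated a (0.19).

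EIF2AK2 (PKR), the sensor of double-stranded RNA, rose by 0.26 and 0.39 (adjusted p in the edgeR fit 0.0029 and 0.00014), and its difference of 0.13 did not pass (adjusted p = 0.30), although it did without SurvNESmut-GFP TMZ b (0.21). Without Surv-GFP untreated a its change in Surv-GFP was 0.21 (adjusted p = 0.050). EIF2AK1 (HRI), the heme sensor, fell by 0.37 and 0.18 (adjusted p = 4.6e-06 and 0.0068), a difference of 0.19 (adjusted p = 0.032) that was lost with the letter as a block (adjusted p = 0.051) and in each fit without a library other than Surv-GFP TMZ a and SurvNESmut-GFP TMZ a. OMA1, the mitochondrial protease that acts upstream of HRI, fell in Surv-GFP by 0.33 (adjusted p = 0.0045) and stood at 0.03 in SurvNESmut-GFP (adjusted p = 0.82), and the difference of 0.36 (adjusted p = 0.033) was lost in DESeq2 (adjusted p = 0.12) and in each fit without a library other than SurvNESmut-GFP untreated a and SurvNESmut-GFP TMZ b. KIAA0141, the older symbol of DELE1 that relays this signal, was at -0.13 and -0.15, GCN1 at -0.07 and 0.11, IMPACT at -0.00 and 0.19 and PRKRA at -0.09 and -0.22, of which only IMPACT and PRKRA in SurvNESmut-GFP passed (edgeR, adjusted p = 0.027 and 0.023). KIAA0141 in Surv-GFP did pass under 5 of the 9 other settings with all letters, at -0.17 with the filter of 1 CPM, and without Surv-GFP TMZ b (-0.22), SurvNESmut-GFP TMZ a (-0.13) or SurvNESmut-GFP TMZ b (-0.13). In SurvNESmut-GFP it passed without SurvNESmut-GFP untreated b (-0.21) or SurvNESmut-GFP TMZ b (-0.19). GCN1 in SurvNESmut-GFP passed with plain library sizes (0.14) and without SurvNESmut-GFP TMZ b (0.17). The calls of IMPACT and PRKRA were lost in DESeq2 (adjusted p = 0.13 and 0.088), that of PRKRA with plain library sizes (-0.19, adjusted p = 0.052), and both without SurvNESmut-GFP untreated a, SurvNESmut-GFP untreated b or SurvNESmut-GFP TMZ a.

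**Figure D4:**
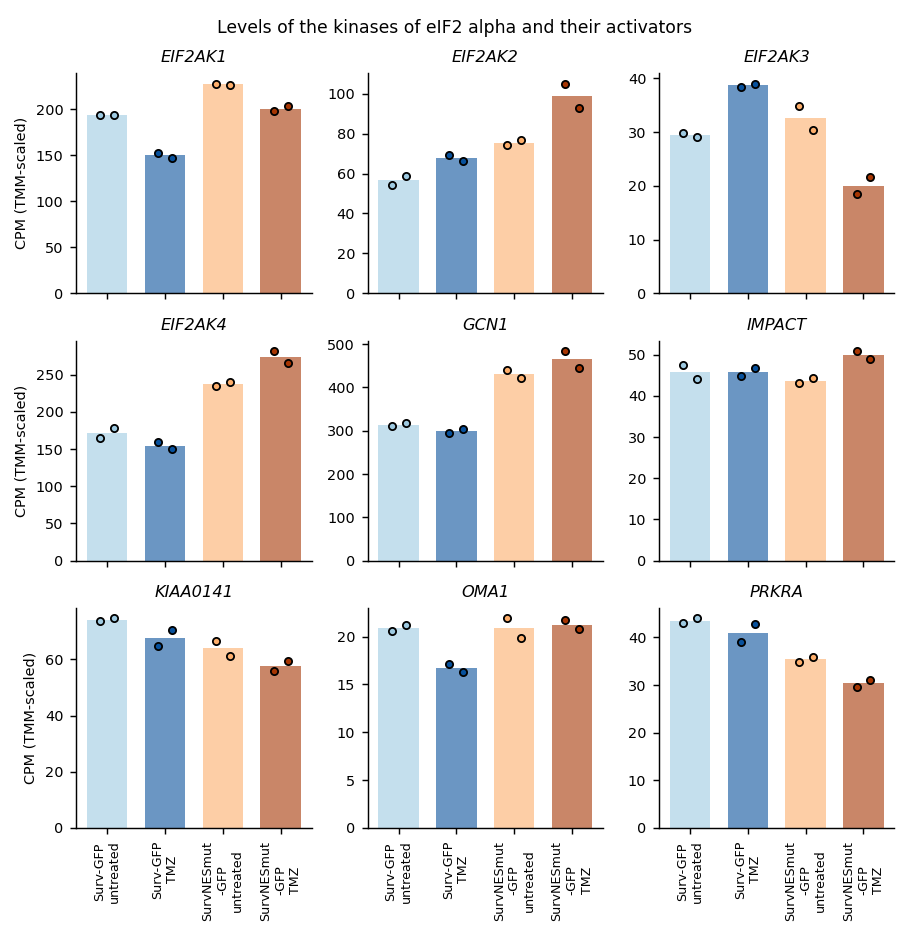
CPM (TMM-scaled, linear axes from 0) of the 4 eIF2 alpha kinases and 5 genes that act on them, in the 8 libraries. Points are libraries and bars are means of 2 libraries. EIF2AK3 is at 38.4 and 39.0 CPM in Surv-GFP TMZ and at 18.5 and 21.6 CPM in SurvNESmut-GFP TMZ, while EIF2AK4 and GCN1 are higher in both SurvNESmut-GFP groups.

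The genes of eIF2 and of the catalytic phosphatase stayed within 1 log2 unit of their untreated levels. Among 14 genes of eIF2, its exchange factor eIF2B and catalytic phosphatase subunits, 7 rose and 3 fell in Surv-GFP and 5 rose and 3 fell in SurvNESmut-GFP, with medians of 0.11 and 0.05, beside 30.1% and 28.9% of all genes in Surv-GFP and 18.6% and 19.1% in SurvNESmut-GFP. The rises numbered 4 in Surv-GFP without Surv-GFP TMZ b and 2 in SurvNESmut-GFP without SurvNESmut-GFP untreated a. EIF2S2, the beta subunit, rose by 0.87 and 0.49 (edgeR, adjusted p = 3e-09 and 6.4e-06), and PPP1CC fell by 0.57 and 0.32 (adjusted p = 4.2e-08 and 6.2e-05). EIF5, which promotes the hydrolysis of GTP on eIF2, rose by 0.46 in Surv-GFP and fell by 0.19 in SurvNESmut-GFP (adjusted p = 2e-07 and 0.0036, difference -0.65, adjusted p = 9.9e-07).

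Paralogs of the members were mixed. Of 9 in the file 7 were tested, and 2 rose, 2 fell and 3 did not pass in each clone. Either direction is 28.6% of those tested, near the 30.1% and 28.9% of all genes in Surv-GFP. In SurvNESmut-GFP the shares of all genes were 18.6% and 19.1%. ATF3, a repressor of the same bZIP class that ATF4 and CHOP pathways induce, was at 11.2 and 9.05 CPM in untreated Surv-GFP, 116 and 138 CPM in Surv-GFP TMZ, 17.3 and 16.4 CPM in untreated SurvNESmut-GFP and 86.7 and 89.1 CPM in SurvNESmut-GFP TMZ. It rose by 3.64 and 2.38 (edgeR, adjusted p = 2.8e-14 and 1.4e-11), a difference of -1.26 ± 0.15 (adjusted p = 5.2e-06). JDP2 rose by 1.12 and 1.63 (adjusted p = 2.1e-05 and 5.6e-05). In contrast to TRIB3, TRIB2 fell by 0.81 and 0.30 (adjusted p = 1.7e-09 and 0.00046, difference 0.51, adjusted p = 7.1e-05), and TRIB1 stood at -0.05 and -0.04 (adjusted p = 0.48 and 0.73). CEBPD, unlike CEBPB and CEBPG, fell by 1.12 and 1.17 (adjusted p = 0.00012 and 0.00022). CEBPA was at -0.13 and -0.28 and CHAC2 at -0.11 and -0.16 without passing, and CEBPE and NUPR1L, at 0.0542 CPM or less, were not tested.

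Genes listed as targets of ATF4 and CHOP moved with the members. Of 47 tested, 42 rose and 3 fell in Surv-GFP and 40 rose and 2 fell in SurvNESmut-GFP, with medians of 1.39 and 0.91. These are 89.4% and 6.38% of the list in Surv-GFP, beside 30.1% and 28.9% of all genes. In SurvNESmut-GFP they are 85.1% and 4.26%, beside 18.6% and 19.1%. The 2 in SurvNESmut-GFP became 1 without Surv-GFP untreated a, Surv-GFP untreated b, SurvNESmut-GFP untreated a or SurvNESmut-GFP untreated b. The difference was called lower for 31 and higher for 4, the latter being 7 without SurvNESmut-GFP TMZ b. For the difference the shares of the list were 66% lower and 8.51% higher, beside 20.2% and 16.6% of all genes. The list was written with earlier results known, so these counts are no independent evidence of its direction. The study describes LN229 as p53-proficient, and CDKN1A, a target of p53, rose upon TMZ as well. Whether ATF4, CHOP, p53 or another regulator moved a given gene of the list, GDF15 and SESN2 included, was not tested. ASNS, the asparagine synthetase, rose by 2.46 and 1.95 (edgeR, adjusted p = 3e-14 and 3.1e-12, difference -0.52, adjusted p = 0.00033), and SESN2, an inhibitor of mTORC1 signalling, by 2.82 and 2.03 (adjusted p = 1e-15 and 9.4e-13). GDF15, a secreted stress cytokine, rose by 6.53 and 2.67, from 14.7 and 16.9 to 1360 and 1550 CPM and from 77.9 and 64.2 to 409 and 499 CPM (adjusted p = 3.4e-16 and 8.6e-12). SLC3A2, a subunit of amino acid transporters, rose by 1.89 in Surv-GFP (adjusted p = 2.4e-14), and in SurvNESmut-GFP it was already at 697 and 722 CPM untreated and at 731 and 714 CPM with TMZ (0.03, adjusted p = 0.71).

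Exceptions among these targets were few. KLHL24 and BCL2L11 were called lower in both clones (KLHL24 -0.56 and -0.88, BCL2L11 -0.85 and -0.31, edgeR, adjusted p between 2.7e-06 and 0.038). The call of BCL2L11 in SurvNESmut-GFP was lost under 4 other settings with all letters and without Surv-GFP untreated a, Surv-GFP untreated b, SurvNESmut-GFP untreated a, SurvNESmut-GFP untreated b or SurvNESmut-GFP TMZ a, in the last case at -0.09. ALDH18A1, which makes a proline precursor, fell in Surv-GFP by 0.91 (adjusted p = 9.6e-10). VLDLR, a lipoprotein receptor, stood at 0.06 in Surv-GFP (adjusted p = 0.66) and rose by 1.16 in SurvNESmut-GFP (adjusted p = 6.8e-07), a difference of 1.11 (adjusted p = 3.4e-05). Of the 35 targets with a promoter window, 11 held the TGATGNAA element, ASNS, SLC3A2 and 5 tRNA synthetase genes among them. FGF21, also among the 11, was not tested for its low counts. Over all genes with a window the share was 4.46%. The list was made of genes described as targets of ATF4 and CHOP, so this count is no independent evidence.

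The neighbouring ATF6 and XBP1 branch of the unfolded protein response, which raises ER chaperones, was called mostly higher in Surv-GFP and mostly lower in SurvNESmut-GFP. Of its 20 genes 13 rose and 4 fell in Surv-GFP, but 2 rose and 12 fell in SurvNESmut-GFP (medians 0.38 and -0.22), and the difference was called lower for 17 and higher for 0. These are 65% and 20% of the branch in Surv-GFP, beside 30.1% and 28.9% of all genes. In SurvNESmut-GFP they are 10% and 60%, beside 18.6% and 19.1%. In the difference they are 85% lower and 0% higher, beside 20.2% and 16.6% of all genes. The 4 that fell in Surv-GFP became 1 without Surv-GFP untreated a, 2 without Surv-GFP untreated b and 0 without Surv-GFP TMZ a, and PDIA4 among them was not called without Surv-GFP TMZ b either. HSPA5 (BiP) was at 1340 and 1270 CPM in untreated Surv-GFP, 2210 and 2080 CPM in Surv-GFP TMZ, 1170 and 1160 CPM in untreated SurvNESmut-GFP and 807 and 889 CPM in SurvNESmut-GFP TMZ. It rose by 0.72 and fell by 0.45 (edgeR, adjusted p = 5e-09 and 3.8e-06, difference -1.17, adjusted p = 5.7e-09). DNAJB9 rose by 2.17 in Surv-GFP (adjusted p = 1.1e-12) and stood at -0.11 in SurvNESmut-GFP (adjusted p = 0.41). The 4 genes that fell in Surv-GFP, the chaperone CALR, the disulfide isomerases PDIA4 and PDIA6 and CRELD2, were also called lower in SurvNESmut-GFP (-0.18 and -0.22, -0.19 and -0.45, -0.17 and -0.28 and -0.21 and -0.39, adjusted p between 4.4e-05 and 0.021), CALR being named after its values were seen. The call of CALR in SurvNESmut-GFP was lost without SurvNESmut-GFP untreated a (-0.19) or SurvNESmut-GFP TMZ a (-0.10). HERPUD1 and ERN1 were the genes that rose in both clones, by 1.61 and 0.49 and by 2.35 and 0.80 (adjusted p between 2.8e-11 and 0.00071). An element of ATF6, CCAAT and CCACG spaced by 9 bases, was found in the windows of 6 of 19 of these genes and of 0.0916% of all genes, and in those of 0 members.

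Other bZIP factors were mixed, with 13 of 26 up and 4 down in Surv-GFP, 9 up and 5 down in SurvNESmut-GFP, and 13 lower and 3 higher in the difference. The 5 became 3 without SurvNESmut-GFP untreated a, SurvNESmut-GFP untreated b or SurvNESmut-GFP TMZ a, and the 3 became 5 without SurvNESmut-GFP TMZ a. XBP1 rose by 2.04 and 0.76 (edgeR, adjusted p = 2.8e-14 and 2.3e-08), and NFIL3 rose by 2.70 in Surv-GFP (adjusted p = 7.6e-13) but stood at 0.05 in SurvNESmut-GFP (adjusted p = 0.73). FOS fell in Surv-GFP by 1.92 (adjusted p = 2e-05), with untreated letters as far apart as 512 and 279 CPM. Mitochondrial chaperones and proteases gave 5 up and 3 down in Surv-GFP and 4 up and 3 down in SurvNESmut-GFP out of 12, the last count being 1 without SurvNESmut-GFP untreated b. The mitochondrial shares, 41.7% up and 25% down in Surv-GFP and 33.3% and 25% in SurvNESmut-GFP, and those of the other bZIP factors, 50% and 15.4% and 34.6% and 19.2%, stand beside 30.1% and 28.9% of all genes in Surv-GFP and 18.6% and 19.1% in SurvNESmut-GFP. In the difference 50% of the other bZIP factors were called lower and 11.5% higher, beside 20.2% and 16.6% of all genes. HSPA9 rose by 1.24 and 0.49 and LONP1 by 1.11 and 0.54 (adjusted p between 1.8e-12 and 1.3e-06), while HSPE1 fell by 0.42 and 0.25 (adjusted p = 6e-05 and 0.0073), the latter not called without SurvNESmut-GFP untreated b (-0.19) or SurvNESmut-GFP TMZ a (-0.18).

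**Figure D5:**
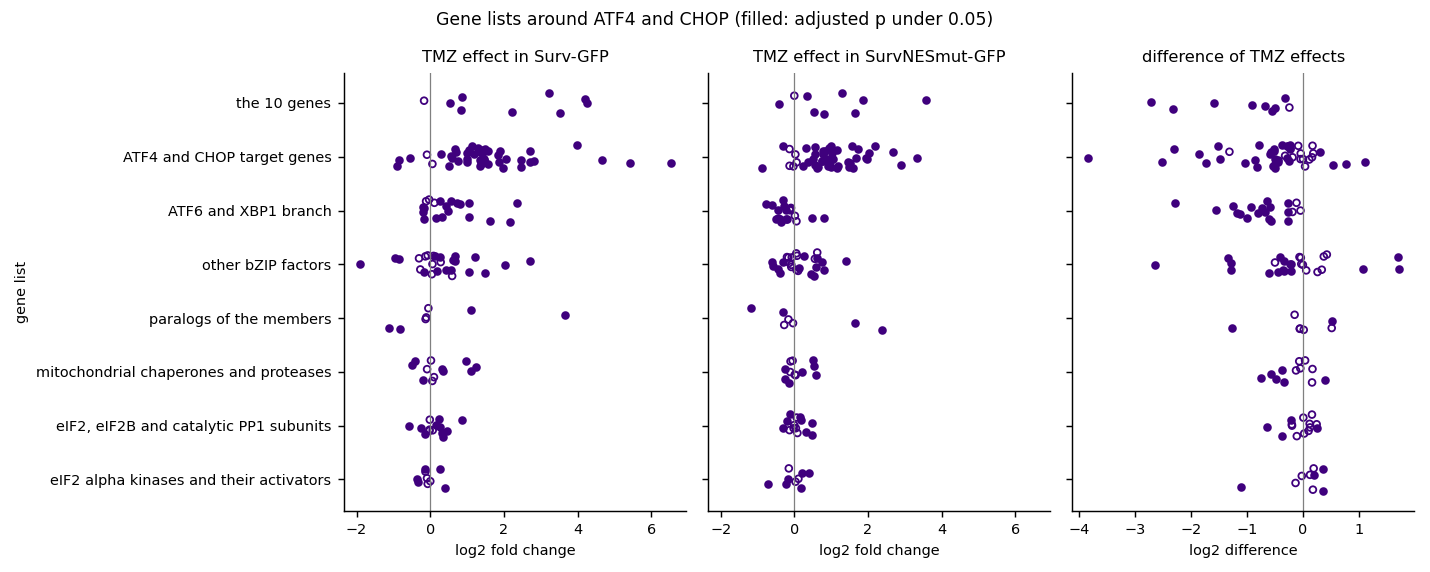
Log2 fold changes upon TMZ in Surv-GFP (left) and in SurvNESmut-GFP (middle, same axis) and the difference SurvNESmut-GFP minus Surv-GFP (right, its own axis) for the genes of 8 lists; each point is a gene, filled where the adjusted p of the edgeR fit was under 0.05, and NUPR1 is left out. The ATF6 and XBP1 branch has a median of 0.38 in the left and -0.22 in the middle panel, while the median of the ATF4 and CHOP targets is above 0 in both (1.39 and 0.91).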

How the data were processed

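The authors deposited read counts per gene symbol as raw whole numbers. The table lists 26364 genes, and 2 further lines without a gene name, which held 12.53 to 15.54% of a library and were left out. The submitters' processing notes name STAR 2.5.0b, Cufflinks 2.2.1 and edgeR, while the counting program, build, annotation and use of strand are not stated in the sources used here. The 5 comparison tables of the authors, which hold fold changes and p-values, were not used.

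The deposited counts entered 1 quasi-likelihood model of edgeR 4.0.16 (R 4.3.3, legacy method) with 4 group means on all 8 libraries, TMM factors of 0.978 to 1.019, edgeR's filter by group (minimum count 10) and Benjamini-Hochberg adjustment over 14201 genes at a threshold of 0.05. SE is the absolute log2 fold change over the root of F. DESeq2 1.42.0 and other normalizations, filters, priors and sample sets were alternatives.

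Members and lists were chosen with earlier results of these data known, so no p is given for members. Named besides the members were all measured kinases, genes that act on them and paralogs, the genes nearest to each member, BIRC5 and CDKN1A, cell type markers and, from each longer list, up to 3 genes per direction and comparison with the lowest p among those called. MARS, because its exons overlap DDIT3, and CALR were named after their values were seen. Intervals of count ratios cover counting error only.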

Additional observations from a re-analysis of the deposited data

Results flagged for a closer look

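The TMZ effect differed between the clones, by the interaction term of the edgeR model over all genes, for the following genes, given as SurvNESmut-GFP minus Surv-GFP on the log2 scale. Among the members these were ATF4 (-0.327), DDIT3 (-1.59), TRIB3 (-2.32), CHAC1 (-0.68), PPP1R15A (-2.72), PPP1R15B (-0.549), CEBPB (-0.495) and CEBPG (-0.919). The members were chosen with such results in view, so their values are descriptions. Of all tested genes 20.2% were called lower and 16.6% higher in this term. Among the kinases and the genes that act on them they were EIF2AK3 (-1.1), EIF2AK4 (0.355), EIF2AK1 (0.193) and OMA1 (0.357), and among the paralogs ATF3 (-1.26) and TRIB2 (0.513). The calls of CHAC1, EIF2AK1 and OMA1 did not hold in all refits. That of EIF2AK1 was lost with the letter as a block and that of OMA1 in DESeq2, and all 3 were lost without certain single libraries, as given above. With 1 clone per form of Survivin, the form and the clone cannot be told apart as the source of these differences. Groups of 2 libraries are too small to call a single library an outlier.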

How the results depend on the processing

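The model was refitted with DESeq2 size factors, with plain library sizes, without a filter on low counts, with a filter of 1 CPM in 2 libraries, in DESeq2, with a robust prior, with the newer quasi-likelihood method of edgeR, on the 4 libraries of each comparison, with the letter as a block and without each library in turn. Among the log2 fold changes of the members, 788 refitted values kept their direction and their side of the threshold, 32 lost the call, 1 gained it and 16 changed sign. Those that changed sign had not been called. CEBPG between the untreated clones (0.01) was -0.017 with DESeq2 size factors and in DESeq2, -0.0466 with plain library sizes, -0.0236 without a filter, -0.0333 with the filter of 1 CPM and -0.0245 on 4 libraries, and -0.0270 to 0.0318 without single libraries. PPP1R15B upon TMZ in SurvNESmut-GFP was 0.0328 with plain library sizes, 0.000606 with the filter of 1 CPM and -0.0428 to 0.0429 without single libraries, and between the untreated clones it was -0.0766 to 0.0047. The other values that changed sign did so without single libraries, except where another setting is named. In Surv-GFP these were IMPACT (-0.0662 to 0.0585), TRIB1 (-0.113 to 0.0139), CEBPA (-0.409 to 0.0956) and VLDLR (-0.0115 to 0.0958), and in SurvNESmut-GFP OMA1 (-0.0441 to 0.104), TRIB1 (-0.140 to 0.0674), SLC3A2 (-0.000463 to 0.0488), NFIL3 (-0.106 to 0.206) and OLIG2 (-0.322 to 0.221, and 0.0155 with plain library sizes). Counts of called list genes moved by over 1.5 times as follows. In SurvNESmut-GFP, targets of ATF4 and CHOP called lower were 1 with plain library sizes, in DESeq2, with the robust prior and on 4 libraries, and other bZIP factors called lower were 3 in DESeq2. With plain library sizes and with the filter of 1 CPM, the difference of TMZ effects was called higher for 5 kinases and genes that act on them, 2 genes of eIF2, eIF2B and phosphatase and 2 mitochondrial genes, and with the robust prior for 1 other bZIP factor. Without single libraries, genes called in Surv-GFP were 0 to 5 (ATF6 and XBP1 branch, lower), 1 to 2 (kinases, higher) and 4 to 7 (eIF2 genes, higher). In SurvNESmut-GFP they were 1 to 2 (targets, lower), 1 to 4 (kinases, higher), 2 to 5 (eIF2 genes, higher), 1 to 3 (mitochondrial, lower) and 3 to 6 (other bZIP factors, lower). In the difference they were 3 to 7 (targets, higher), 1 to 4 (kinases, higher), 1 to 2 (eIF2 genes, higher), 2 to 5 (eIF2 genes, lower), 1 to 2 (mitochondrial, higher) and 3 to 5 (other bZIP factors, higher). Members called higher between the clones were 4 to 7 untreated and 1 to 3 with TMZ. The cause of these changes was not tested. Deviations of same-letter libraries from their group means correlated at -0.0671 to 0.0832 over the tested genes. This cannot settle whether libraries of the same letter shared a culture or a batch, since noise at low counts also lowers such a correlation. With the letter as a replicate block, 8203 genes were called for TMZ in Surv-GFP (8371 without it), 5179 in SurvNESmut-GFP (5367), 5074 in the difference (5226), 8971 between untreated clones (9106) and 9722 between TMZ groups (9830), and among the members the block changed only the call of ATF5 between the TMZ groups (0.22, which then did not pass). Depth limits NUPR1 most, since its libraries held at most 52 counts.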
